A study of Mus musculus with 24 samples.

Results

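The genes described here are Abca5, Abca6, Abca8a, Abca8b and Abca9, which lie side by side on mouse chromosome 11 and encode ATP-binding cassette transporters of subfamily A. They were chosen by symbol and position, with their KA against SH values in view, and make up 5 of the 53379 genes in the count table. All 5 were among the 37598 genes that passed the filter on low counts. mRNA was sequenced from nuclei of the right hippocampus of adult male C57/BL6N mice, taken 24 hours after injection. KA mice received kainic acid, an agonist of kainate-type glutamate receptors, into the cortex next to the hippocampus, which models mesial temporal lobe epilepsy. SH mice received the same surgery with saline. KA mice that showed no convulsive seizures had been excluded by the study, so the KA groups hold only mice with such seizures. The 8 mice of each treatment were combined into 3 pools. These were unequal, since the study describes its sample 1 of each treatment as drawn from more mice than the others. Nuclei of each pool were sorted by the neuronal nuclear protein NeuN into NeuN+ nuclei, called neurons, and NeuN- nuclei, called glia, which gave 12 libraries and 3 per group. NeuN- nuclei include every nucleus without NeuN, also those of vessels and meninges. Pools of the same number share their mice only between the NeuN+ and NeuN- libraries of 1 treatment.

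ABCA transporters use ATP to move lipids across or between the leaflets of membranes. The chromosome 11 genes arose by tandem duplication and are less well studied than Abca1, the cholesterol exporter of the same subfamily. Abca5 is found on lysosomes and late endosomes, where it takes part in cholesterol and sphingolipid handling. Abca8a and Abca8b are the rodent counterparts of human ABCA8, which has been linked to lipid export and to sphingomyelin production in oligodendrocytes. Abca6 and Abca9 were described in macrophages, and their substrates are poorly known. In the brain, cholesterol is made locally, and lipids pass between glia and neurons on particles that such exporters load.

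Library totals ranged from 7769400 to 40364768 counted reads, and the 5 genes had between 61 reads (Abca8a, KA neurons, pool 1) and 3985 reads (Abca8a, SH glia, pool 3) each. The 4 libraries of pools numbered 3 detected the fewest genes in their groups. SH glia pool 1 and KA glia pool 2 were made from about 0.05 ng of RNA with 15 cycles of amplification, against about 1 ng and 10 cycles elsewhere. The NeuN separation was visible in the markers. The summed level of 15 neuronal markers in NeuN- libraries was 0.101 to 0.266 times that in the NeuN+ library of the same SH pool, and 8 oligodendrocyte markers summed to 23.3 to 79.8 times more in NeuN-.

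In GRCm38 coordinates the cluster spanned 405527 bases on the minus strand. In order along the chromosome, Abca8b lay at chr11:109932190-109995845, Abca8a at chr11:110025634-110095978, Abca9 at chr11:110100749-110168196, Abca6 at chr11:110176820-110251776 and Abca5 at chr11:110269369-110337716. Between neighbours, 29788, 4770, 8623 and 17592 bases were free of these genes. Reads were counted without strand, and 3.25% of the exon bases of Abca8b lay opposite exons of Gm11697, so reads there cannot be told apart by strand. Abca8a and Abca8b shared little sequence that could split reads, since 1.64% and 2.45% of their 50-base exon words also occurred in another gene of the pair or in Gm11697. For Abca5, Abca6 and Abca9 this share was at most 0.243%.

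The bases before the transcription start are shown for the 4 genes with a promoter entry in RefSeq (build GRCm38.p6), since Abca5, at 1 end of the cluster, had the opposite order between cell types from Abca8a and Abca9. The sequences run 5′ to 3′ on the minus strand and end where the first annotated exon begins. Capitals mark a GC box (GGGCGG) or an E box (CACGTG), on either strand.
Abca8b, chr11:109995846-109996095: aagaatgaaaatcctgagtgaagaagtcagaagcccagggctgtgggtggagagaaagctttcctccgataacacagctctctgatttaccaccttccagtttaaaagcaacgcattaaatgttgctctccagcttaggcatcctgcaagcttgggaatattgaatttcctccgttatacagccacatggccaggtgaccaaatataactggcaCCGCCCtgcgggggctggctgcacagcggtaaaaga
Abca8a, chr11:110095979-110096187: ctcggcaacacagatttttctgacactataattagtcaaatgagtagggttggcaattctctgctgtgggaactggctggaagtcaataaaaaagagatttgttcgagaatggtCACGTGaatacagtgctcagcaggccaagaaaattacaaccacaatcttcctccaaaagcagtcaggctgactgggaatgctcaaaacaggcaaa
Abca9, chr11:110168197-110168403: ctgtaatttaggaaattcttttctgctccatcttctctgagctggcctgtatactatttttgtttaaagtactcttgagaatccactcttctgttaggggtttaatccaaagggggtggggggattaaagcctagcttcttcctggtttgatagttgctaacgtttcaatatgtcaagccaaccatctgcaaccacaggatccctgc
Abca5, chr11:110337717-110337966: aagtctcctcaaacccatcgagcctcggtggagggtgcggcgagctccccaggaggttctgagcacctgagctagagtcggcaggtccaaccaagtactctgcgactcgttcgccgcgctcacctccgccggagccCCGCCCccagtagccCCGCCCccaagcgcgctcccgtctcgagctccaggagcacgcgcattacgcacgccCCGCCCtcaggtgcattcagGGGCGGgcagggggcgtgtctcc
Over the 250 bases before the RefSeq start, Abca5 held 25 CpG dinucleotides and 69.2% G or C. Abca8b held 6 CpG dinucleotides, Abca8a held 4 and Abca9 held 2, against a median of 6 over 32851 mouse promoter windows of this length. The GC box occurred 4 times in the Abca5 window and 1 time in that of Abca8b, and 32.7% of all windows held it. The E box occurred in the Abca8a window and in 6.02% of all windows. Searched on both strands, CCAAT was found in none of the 4 windows and in 33.8% of all windows. The core element TATAAA was likewise in none of the 4 and in 12.4% of all, and the AP-1 motif TGANTCA in none of the 4 and in 6.75% of all. The motifs did not overlap each other. These matches describe letters in the windows, and binding was not measured.

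In neurons, transcript levels of the cluster came mostly from Abca5 and Abca8b. Levels are compared between genes as RPKM, reads per 1000 bases of exon and 1000000 reads. In SH neurons the mean RPKM was 10.8 ± 2.32 for Abca5 and 8.89 ± 2.17 for Abca8b (SD, n = 3 here and below), and the libraries of these 2 genes overlapped. Abca8a followed at 1.58 ± 0.277, Abca6 at 1.24 ± 0.426 and Abca9 at 0.568 ± 0.0976. The gap between Abca8b and Abca8a, and that between Abca6 and Abca9, exceeded the spread, whereas Abca8a and Abca6 overlapped. In KA neurons Abca5 was at 8.93 ± 0.982, Abca8b at 5.84 ± 0.521, Abca6 at 1.67 ± 0.483, Abca9 at 1.13 ± 0.324 and Abca8a at 1.07 ± 0.240 RPKM. The last 3 genes overlapped in this group, and the first 2 did not overlap with each other or with the rest.

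In glia the 5 genes were closer together. SH glia had 12.2 ± 5.88 RPKM of Abca8a, 7.95 ± 3.04 of Abca8b, 7.57 ± 4.94 of Abca9, 5.81 ± 2.07 of Abca6 and 5.17 ± 1.81 of Abca5, and each gene overlapped with the next. KA glia had 5.03 ± 1.87 RPKM of Abca8a, 4.97 ± 1.27 of Abca5, 3.53 ± 0.778 of Abca8b, 2.08 ± 0.437 of Abca6 and 1.81 ± 0.320 of Abca9, and among neighbours in this order only Abca8b and Abca6 did not overlap. Abca5 thus made up 40.3% to 53.4% of the summed RPKM of the cluster in SH neurons and 9.01% to 23.6% in SH glia. Its share in KA glia was 25.4% to 30.2%, above every SH glia library. The Abca5 level itself was similar in SH and KA glia (5.17 and 4.97 RPKM), so the share rose with the lower levels of the other genes. The genes were chosen with their KA against SH values in view, so nothing is read from this rise. Abca9 took 15.5% to 23.5% in SH glia, 7.05% to 13.1% in KA glia, 2.03% to 2.71% in SH neurons and 4.60% to 7.38% in KA neurons, and only the last of these ranges overlapped with another, that of KA glia.

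**Figure D1:**
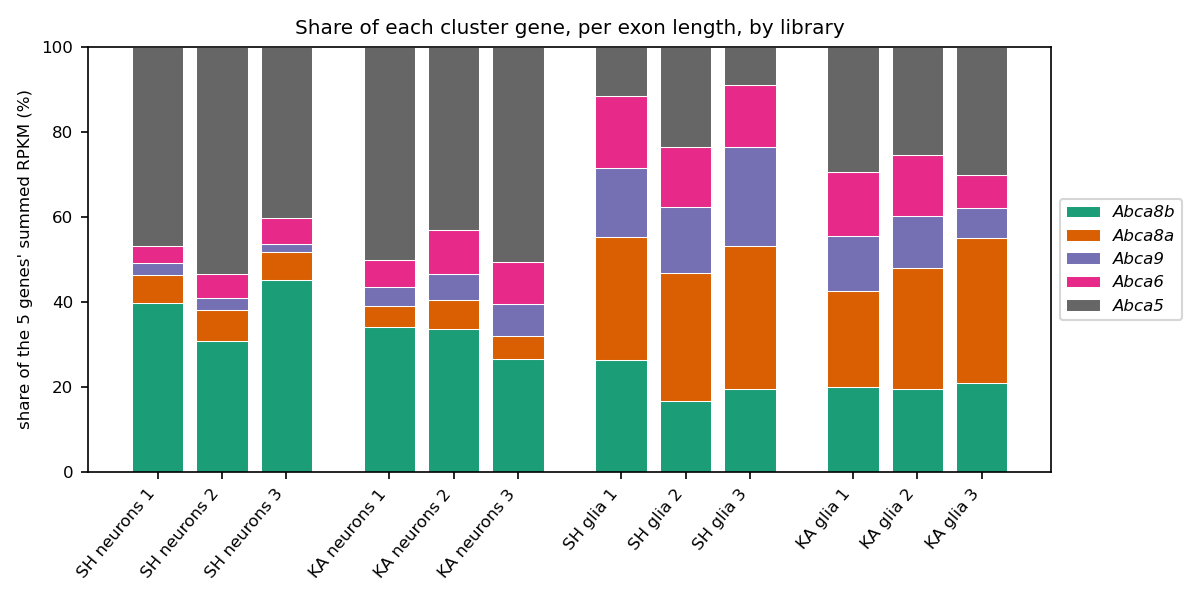
Share of each gene in the summed RPKM of the 5 cluster genes, in percent, for each of the 12 libraries (bars, by group and pool number). Abca5 and Abca8b fill most of each neuronal bar, and the Abca5 share in KA glia (25.4% to 30.2%) exceeds that in SH glia (9.01% to 23.6%). The Abca5 level itself overlapped between SH and KA glia, and the genes were chosen with their KA against SH values in view.

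The comparison of NeuN- with NeuN+ nuclei asked in which cells each transporter was expressed. In SH mice Abca9, Abca8a and Abca6 were higher in glia, and Abca8b overlapped between the cell types. Abca5 was higher in neurons in each pool. It did not pass the unpaired test, but passed with the pool as a block. The main fit, which did not pair the pools, used edgeR's quasi-likelihood test over all genes at FDR 0.05 (Benjamini-Hochberg). It shares its libraries with the KA against SH values that were in view when the genes were chosen. At this threshold 3 of the 5 genes were higher in NeuN-, where 4.67% of all tested genes were, and 0 were lower, where 6.05% were. DESeq2 also called 3 higher and 0 lower, and at an unadjusted p under 0.05 Abca5 was the further gene. Neither fit paired the NeuN+ and NeuN- libraries of the same mice. With the pool as a block in edgeR, 3 were higher and 1, Abca5, was lower (edgeR adjusted p = 0.000775). That fit called 2841 of all 37598 genes higher and 5322 lower. The share of all tested genes whose libraries separate between cell types is not given. Nothing is therefore read from such a separation, here or for the single genes below.

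Abca9 showed the widest difference between cell types in SH mice. Its level in SH glia was 38.7, 37.2 and 107 CPM (counts per 1000000 reads, TMM-scaled) in pools 1, 2 and 3, and 4.12, 5.48 and 4.12 CPM in SH neurons. All glial libraries lay above all neuronal ones, by 9.41, 6.79 and 25.9 times within pools, and the logFC was 3.73 ± 0.45 (SE, edgeR adjusted p = 0.00011). In KA mice Abca9 measured 17.0, 14.8 and 11.9 CPM in glia and 6.49, 9.16 and 11.7 CPM in neurons. The libraries still did not overlap, but in pool 3 the levels were nearly equal (1.02 times). The logFC in KA mice was 0.67 ± 0.41 and did not pass the test (edgeR adjusted p = 0.477). Fitted on the 6 KA libraries alone it was 1.18 with an adjusted p of 0.0479. Whether the cell type difference itself differed between SH and KA was not tested.

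Abca6, the neighbour of Abca9, followed a like pattern at lower levels. SH glia had 27.4, 22.7 and 44.0 CPM and SH neurons 4.06, 7.80 and 8.25 CPM. Glia were higher by 6.76, 2.92 and 5.33 times within pools (logFC 2.22 ± 0.40, edgeR adjusted p = 0.00169). KA glia had 13.2, 11.8 and 8.61 CPM and KA neurons 5.98, 10.4 and 10.6 CPM. These groups overlapped, and in pool 3 the neuronal library was the higher one (logFC 0.31 ± 0.39, edgeR adjusted p = 0.811).

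Abca8a was the only member past the threshold in both treatments. Its level was 54.1, 56.4 and 119 CPM in SH glia and 8.05, 11.5 and 10.1 CPM in SH neurons (logFC 2.95 ± 0.40, edgeR adjusted p = 0.000215). KA glia had 22.9, 26.9 and 44.9 CPM, and KA neurons 5.21, 8.23 and 6.72 CPM (logFC 2.23 ± 0.39, edgeR adjusted p = 0.00166). Within KA pools glia were 4.40, 3.27 and 6.68 times higher, so no library of 1 cell type reached those of the other. In KA mice 1 of the 5 genes was thus higher in NeuN-, where 3.98% of all tested genes were, and 0 were lower, where 5.88% were. DESeq2 gave the same counts, and at an unadjusted p under 0.05 the further genes were Abca5 and Abca8b. With the pool as a block, 1 was higher and 2, Abca5 and Abca8b, were lower.

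Abca8b, the neighbour and closest relative of Abca8a, overlapped between the cell types in SH mice. SH glia had 58.3, 36.8 and 81.9 CPM and SH neurons 56.1, 57.4 and 84.6 CPM. The groups overlapped and the ratios within pools were 1.04, 0.641 and 0.968 (logFC -0.16 ± 0.34, edgeR adjusted p = 0.919). The sign of this value turned with the scaling: with RLE size factors in place of TMM it was 0.04. In KA mice glia had 24.0, 21.8 and 32.7 CPM and neurons 44.5, 46.5 and 39.0 CPM. All KA glia libraries lay below all KA neuronal libraries (logFC -0.73 ± 0.34, edgeR adjusted p = 0.266). Among the 34 other tested ABC transporters, 4 lay below in this way in KA mice. This does not stand in for the share over all tested genes, which is not given. With the pool as a block, which pairs the libraries of the same mice, Abca8b was lower in KA glia with a logFC of -0.74 (adjusted p = 0.028). That fit called 5289 of all 37598 genes lower in NeuN- in KA mice, against 2211 in the fit without the block.

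Abca5 was the only gene of the cluster with its higher level in neurons in all 6 pools. SH neurons had 102, 153 and 116 CPM and SH glia 38.9, 80.3 and 58.2 CPM, and the groups did not overlap. Within SH pools the glial level was 0.381, 0.524 and 0.502 times the neuronal one (logFC -1.07 ± 0.35, edgeR adjusted p = 0.0626). KA neurons had 101, 91.8 and 114 CPM and KA glia 54.5, 43.7 and 72.4 CPM, again without overlap (logFC -0.84 ± 0.35, edgeR adjusted p = 0.175). With the pool as a block, Abca5 was lower in glia in SH mice (logFC -1.10, adjusted p = 0.000775) and in KA mice (logFC -0.87, adjusted p = 0.00481). The block fit called 5322 of all 37598 genes lower in NeuN- in SH mice and 5289 in KA mice.

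**Figure D2:**
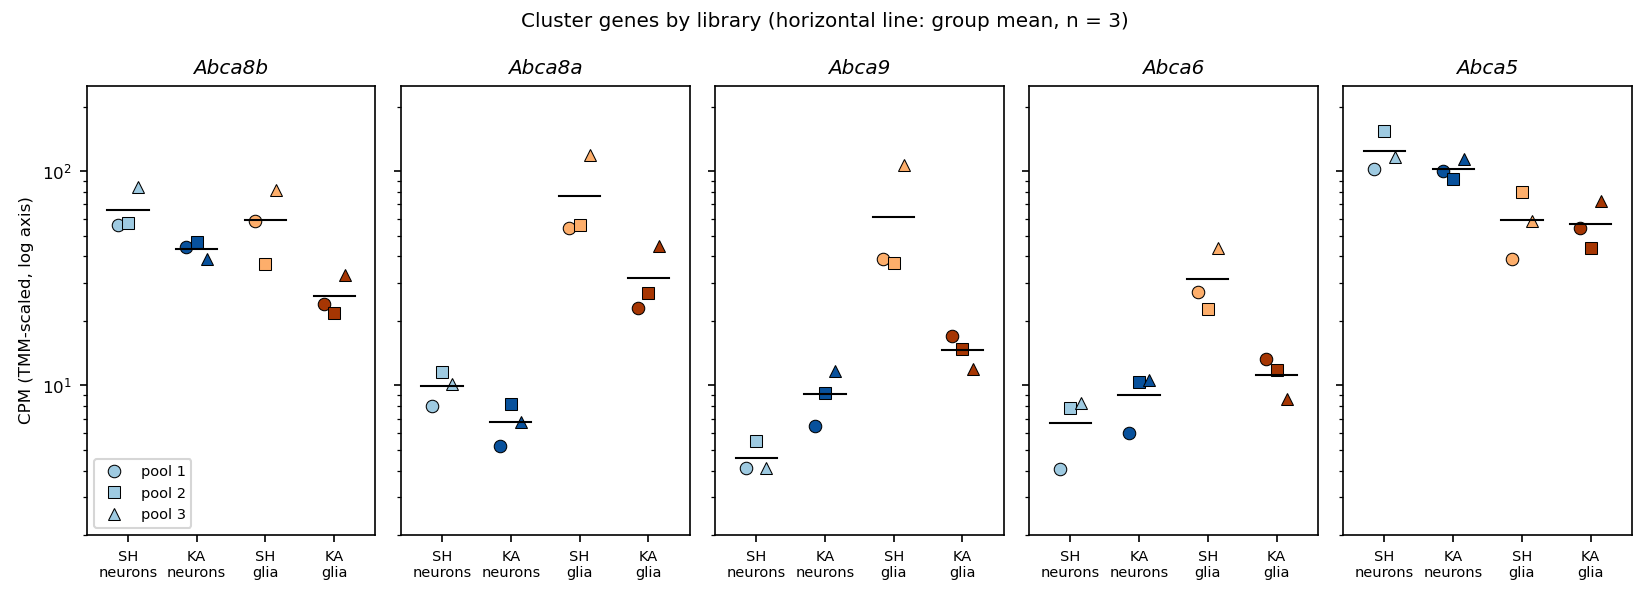
Level of each cluster gene in every library, in CPM on a log axis, by group, with the pool number as the symbol and the group mean (n = 3) as a line. Abca8a, Abca9 and Abca6 lie higher in SH glia than in SH neurons, Abca5 lies higher in neurons, and KA glia lie below SH glia for all but Abca5.

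By the study's own measure the sorted fractions were not fully pure. The marker lists give, for each pool, the share of their NeuN- level that was found in NeuN+. Such a share does not separate carried-over nuclei from RNA that the listed genes have in neurons. In the NeuN+ library of the same pool, the oligodendrocyte list summed to 1.25% to 4.30% of its NeuN- level in SH and to 1.35% to 5.52% in KA. Microglia markers reached 4.17% to 4.80% in SH and 5.61% to 7.74% in KA, and astrocyte markers 8.02% to 23.4% in SH and 10.1% to 43.0% in KA. The Abca9 level in NeuN+ was 3.86% to 14.7% of that in NeuN- in SH and 38.1% to 98.4% in KA. The corresponding ranges were 14.8% to 34.3% and 45.3% to 123% for Abca6, and 8.50% to 20.4% and 15.0% to 30.6% for Abca8a. In each KA pool the shares of Abca9 and Abca6 thus lay above those of the oligodendrocyte, microglia and astrocyte lists. The part of sorting in these values was not tested. Endothelial markers in NeuN+ were at 44.9% to 110% of their NeuN- level over the 6 pools, mural markers at 32.6% to 111% and fibroblast markers at 71.6% to 157%. Of the 7 tested fibroblast markers, 2 were higher in SH glia by the test and 2, Dcn and Ogn, were lower.

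**Figure D3:**
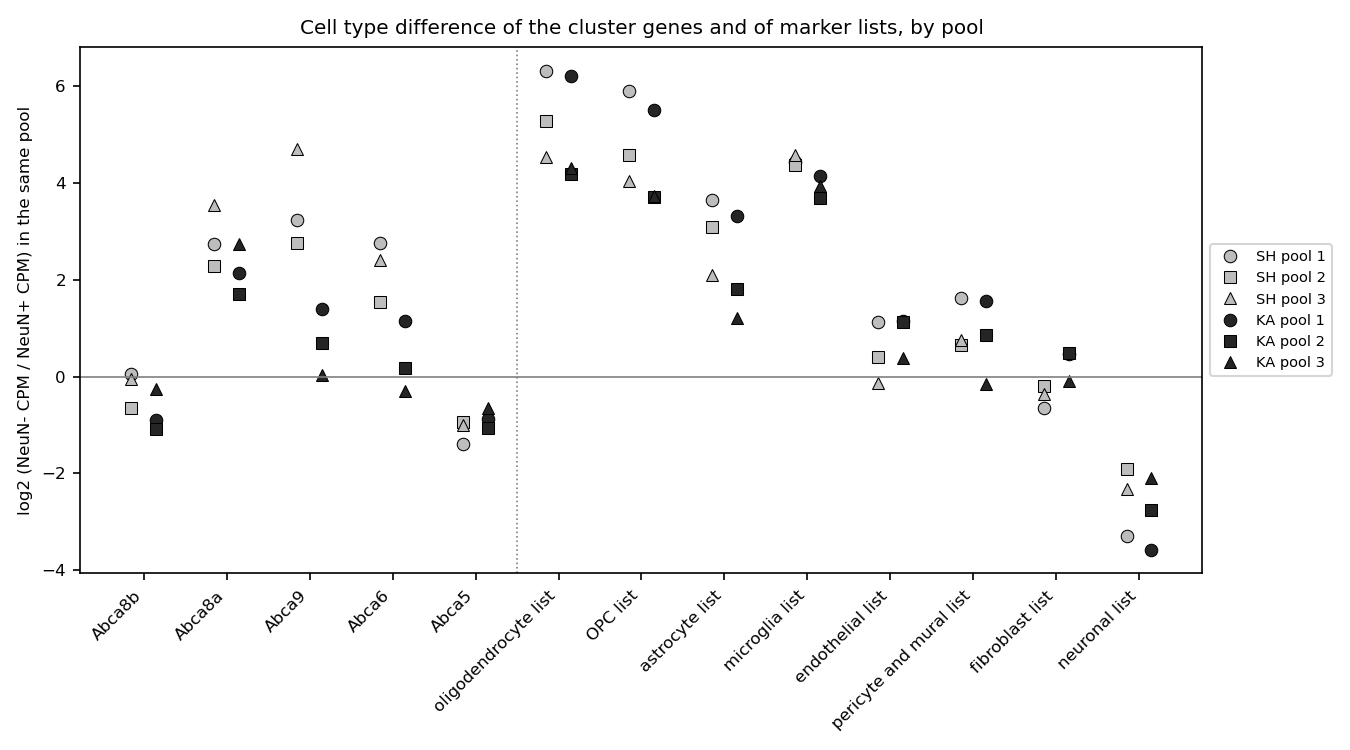
Log2 ratio of the NeuN- to the NeuN+ level in the same pool, for the 5 cluster genes and for the summed levels of 8 marker lists; grey symbols are SH pools and black symbols KA pools. The ratio of Abca9 falls from 6.79 to 25.9 times in SH to 1.02 to 2.62 times in KA, while that of Abca5 stays below 1 in all pools.

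The main comparison of the study set KA against SH at 24 hours within each cell type. For the cluster genes these values are a description, since they were in view when the genes were chosen, and no test is read from them. In glia, Abca9, Abca6, Abca8a and Abca8b were lower in KA, and Abca5 was not. In all 4, each KA glia library lay below each SH glia library, a pattern that 3.00% of all tested genes showed. At an FDR of 0.25, 2 of 5 genes, Abca9 and Abca6, were called lower, against 0.306% of all tested genes called lower and 0.442% called higher. The genes were chosen with these values known, so the count describes the choice and nothing is read from it.

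Abca9 had the largest difference of the cluster, with 14.6 ± 2.57 CPM in KA glia and 60.9 ± 39.7 CPM in SH glia (23.9% of SH, logFC -2.07 ± 0.42). Much of the SH spread came from pool 3, at 107 CPM, and without that library the logFC was -1.39. Abca6 had 11.2 ± 2.36 CPM in KA glia and 31.4 ± 11.2 CPM in SH glia (35.7% of SH, logFC -1.49 ± 0.39). For both genes SH glia pool 3 was the highest and KA glia pool 3 the lowest of the 6 libraries. Abca8a had 31.6 ± 11.7 against 76.5 ± 36.9 CPM (41.3% of SH, logFC -1.28 ± 0.38), and Abca8b 26.2 ± 5.78 against 59.0 ± 22.6 CPM (44.4% of SH, logFC -1.17 ± 0.34). In these 2 genes pool 3 was the highest library in KA as well as in SH. Abca5 had 56.9 ± 14.5 CPM in KA glia and 59.2 ± 20.7 CPM in SH glia, and the groups overlapped (logFC -0.06 ± 0.34).

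Summed over the cluster, SH glia had 217 to 410 CPM and KA glia 119 to 171 CPM, so the groups did not overlap. The number of cluster genes called lower in glia moved between 0 and 4 with the fit. It was 4 with DESeq2 and with the replicate number as a block, fits that called 645 and 1566 of all 37598 genes lower, against 115 here. It was 0 when the 6 glial libraries were fitted alone or when SH glia pool 3, KA glia pool 2 or the 2 low-input libraries were left out. In that order, these fits called 17, 16, 6 and 1 of all genes they tested lower in glia.

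In neurons the cluster did not move together. Abca9 was higher in every KA library than in every SH library, with 9.12 ± 2.61 against 4.57 ± 0.785 CPM (1.99 times, logFC 1.00 ± 0.41). Such a separation upwards was seen in 5.27% of all tested genes. Abca6 had 8.99 ± 2.61 CPM in KA and 6.70 ± 2.30 CPM in SH neurons, and its groups overlapped (logFC 0.43 ± 0.39). Abca8b was lower in every KA library, with 43.3 ± 3.87 against 66.0 ± 16.1 CPM (65.6% of SH, logFC -0.61 ± 0.34), as were 4.45% of all tested genes. Abca8a had 6.72 ± 1.51 against 9.89 ± 1.74 CPM (logFC -0.55 ± 0.38) and Abca5 102 ± 11.2 against 124 ± 26.5 CPM (logFC -0.28 ± 0.34), both with overlapping groups. By edgeR at FDR 0.25, 0 of 5 genes were called in neurons, against 0.340% of all tested genes, and DESeq2 also called 0. At an unadjusted p under 0.05 there was 1, Abca9.

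Abca9 therefore lay lower in all KA glia libraries and higher in all KA neuron libraries than in the SH libraries of the same cell type. In KA pool 3 the neuronal level (11.7 CPM) was almost that of glia (11.9 CPM). For scale, Abca14, Abca15 and Abca16, ABCA genes known mainly from testis, measured 0.735 to 2.91 CPM in SH neurons and 0.972 to 3.76 CPM in KA neurons. Abca4, known from photoreceptors, had 5.47 to 13.0 CPM in SH and 8.06 to 10.4 CPM in KA neurons, and Abca12, known from keratinocytes, 2.94 to 9.68 and 4.82 to 10.4 CPM. In SH neurons Abca9, at 4.12 to 5.48 CPM, was thus within the range of these genes. In KA neurons pools 1 and 2 (6.49 and 9.16 CPM) were within it too. Pool 3, at 11.7 CPM, lay above their highest KA value of 10.4 CPM. It lay below the highest KA neuron values of Abca17 and Abca13, at 12.2 and 16.3 CPM, so no Abca9 library stood out from all low-level ABCA genes. These CPM values were not scaled to exon length.

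**Figure D4:**
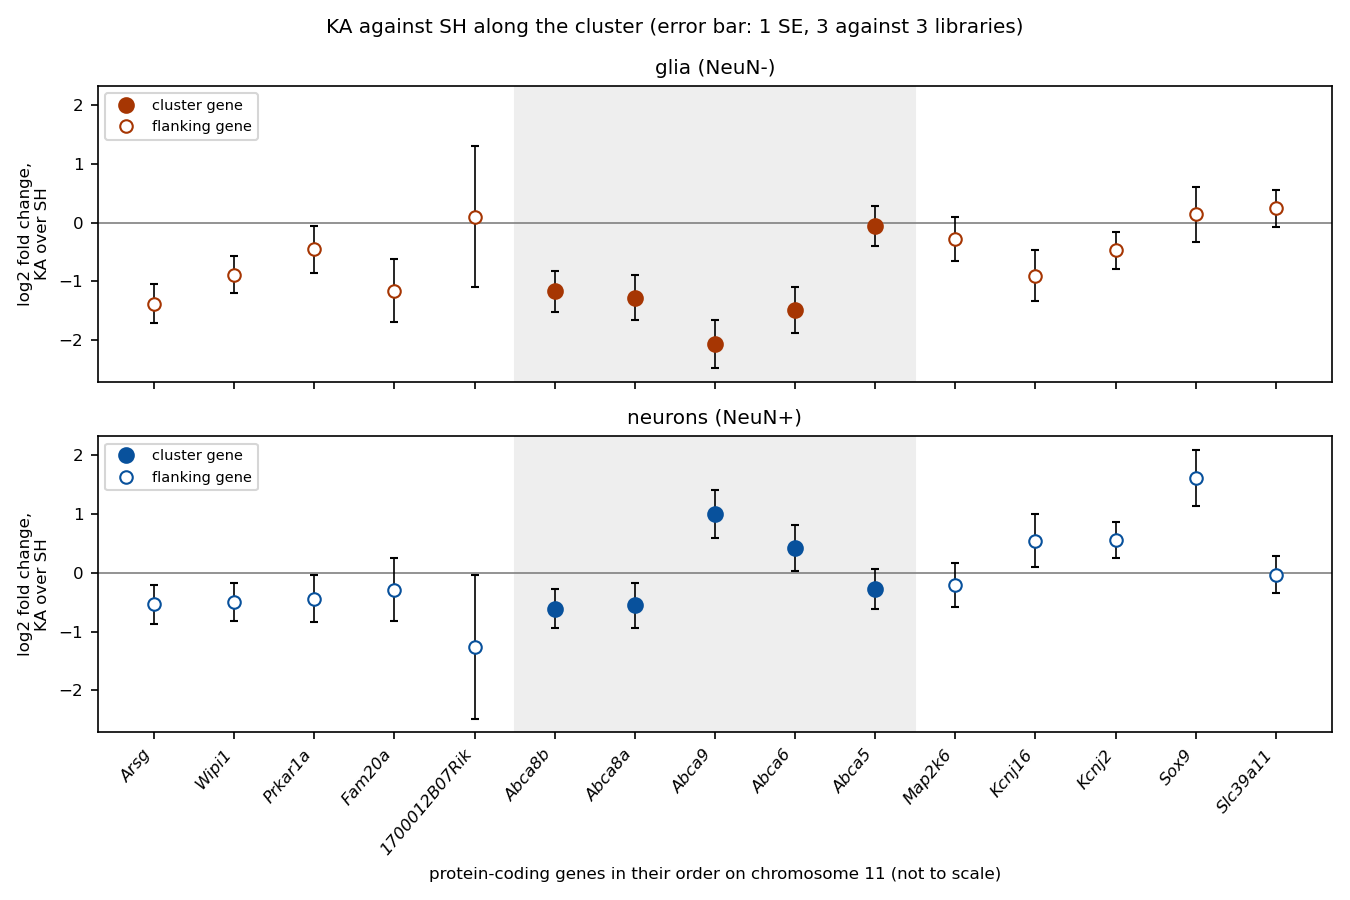
Log2 fold change of KA over SH (points, with 1 SE) for the 5 cluster genes (filled, shaded area) and the 5 nearest tested protein-coding genes on each side (open), in their order on chromosome 11, for glia above and neurons below. In glia 4 of the 5 cluster genes lie between -1.17 and -2.07 and Abca5 at -0.06, while in neurons Abca9 lies at 1.00 and Abca8b at -0.61.

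Summed oligodendrocyte and precursor markers were also lower in the KA glia libraries, whereas astrocyte markers went both ways. In bulk samples, fewer cells of a type and less RNA per cell cannot be told apart. The 8 oligodendrocyte markers, with Mbp and Mog among them, summed to 14307 to 29793 CPM in SH glia and 7540 to 14090 CPM in KA glia, and none of the 8 was at 0. Their logFC values ran from -1.50 to -0.32 with a median of -1.11, and 0 of 8 passed the test at FDR 0.25. Mag, Mobp and Opalin overlapped between SH and KA. The 5 oligodendrocyte precursor markers, with Pdgfra and Cspg4, summed to 1364 to 2371 CPM in SH and 655 to 1355 CPM in KA, and 1 of 5, Cspg4, passed the test. Sox10, also on that list, overlapped (logFC -0.19 ± 0.73). Astrocyte markers overlapped, with 2024 to 2942 CPM in SH and 1259 to 2405 CPM in KA, and 1 of 10, Aldoc, was lower by the test. Among the others, Gfap and Aqp4 lay higher in every KA library than in every SH library without passing it (logFC 1.94 ± 0.65 and 0.68 ± 0.72). Microglia markers also overlapped, with 1119 to 2540 CPM in SH and 831 to 1672 CPM in KA, and 2 of 10 were lower, P2ry12 and Siglech. Endothelial markers (11.4 to 40.4 CPM in SH and 23.3 to 59.8 CPM in KA), mural markers (37.9 to 67.7 and 34.8 to 83.3 CPM) and fibroblast markers (60.4 to 83.3 and 36.2 to 78.5 CPM) were scarce in glia of both treatments, and so were choroid plexus and ependymal markers (22.6 to 189 and 21.5 to 42.7 CPM) and blood leukocyte markers (73.1 to 83.0 and 79.1 to 118 CPM). The part of the cell type makeup in the cluster values was not tested.

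Set against the oligodendrocyte list of the same library, the glial differences of Abca8b, Abca8a, Abca6 and Abca9 were smaller, and that of Abca5 was larger. Per 10000 CPM of that list, Abca8b had 22.5 to 27.5 CPM in SH glia and 22.4 to 29.0 CPM in KA glia, a ratio of means of 0.985. Abca8a had 20.9 to 40.0 CPM in SH and 21.4 to 35.7 CPM in KA, a ratio of 0.887. For Abca6 the ranges were 10.6 to 15.9 and 6.11 to 15.7 CPM, a ratio of 0.827. Abca9 had 15.0 to 35.8 CPM in SH and 8.45 to 19.6 CPM in KA, a ratio of 0.572, and its groups overlapped on this scale too. Abca5 had 15.0 to 56.1 CPM in SH and 50.9 to 58.0 CPM in KA, a ratio of 1.77. On the precursor, astrocyte and microglia lists, Abca9 lay below SH in every KA library, with ratios of 0.515, 0.370 and 0.431. Abca8b lay below on the astrocyte and microglia lists (0.678 and 0.714), Abca6 on the astrocyte list (0.545) and Abca8a on the microglia list (0.631).

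**Figure D5:**
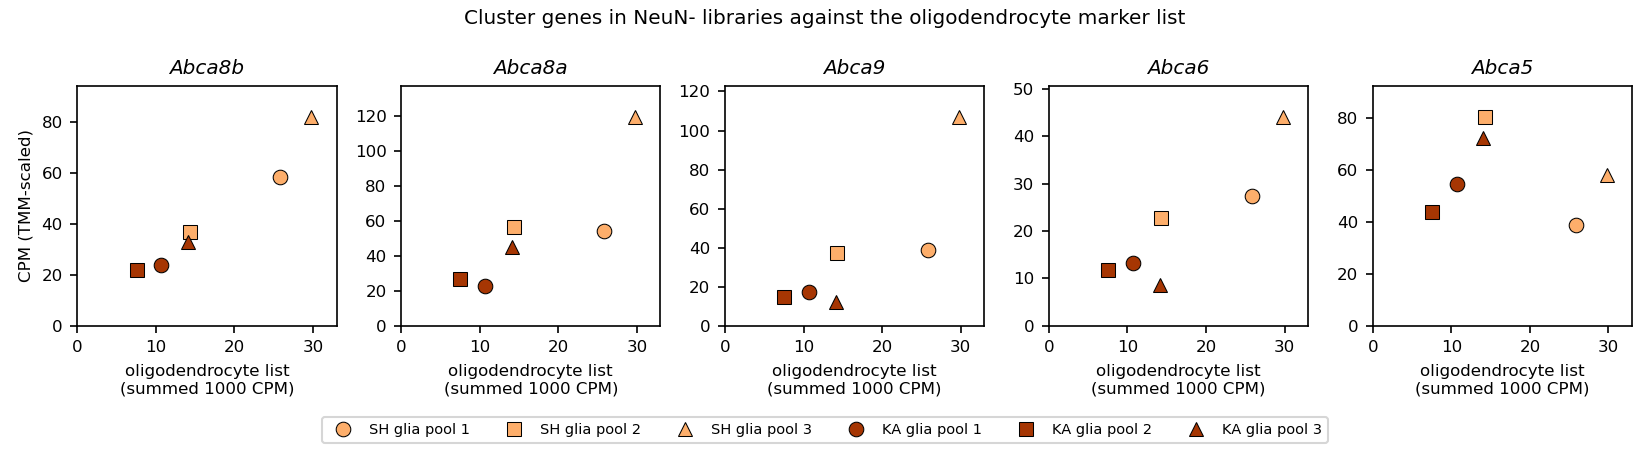
Level of each cluster gene (CPM) in the 6 NeuN- libraries against the summed level of 8 oligodendrocyte markers in the same library (in 1000 CPM), SH light and KA dark, with the pool number as the symbol. Abca8b lies near a line through the origin in all 6 libraries, KA glia pool 3 has the least Abca9 and Abca6 of the 6 but not the lowest marker level, and Abca5 shows no such order.

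The rest of the subfamily is given for context. It is no matched background, since the cluster genes were chosen with their KA against SH values in view. In glia, 0 of the 11 other tested ABCA genes passed edgeR's test for KA against SH at FDR 0.25, 0 had an unadjusted p under 0.05, and DESeq2 called 0. With the replicate block 2 were lower, in a fit that called 1566 of all 37598 genes lower. Their median logFC was 0.28, against 0.14 over all tested genes. Abca4 and Abca12 to Abca17 had low means of 2.93 to 10.7 CPM in SH glia. Their SE was 0.62 to 1.06, so a difference in them was hard to call. Abca1, which exports cholesterol to apolipoproteins, had 247 ± 52.5 CPM in SH glia and 262 ± 119 CPM in KA glia (logFC 0.09 ± 0.40). Abca2, a sterol transporter abundant in oligodendrocytes, had 1127 ± 391 CPM in SH and 654 ± 335 CPM in KA, and the groups overlapped (logFC -0.79 ± 0.51). Abca7, a phospholipid transporter linked to Alzheimer's disease risk, had a logFC of -0.85 ± 0.58, and Abca3, the lipid transporter of lung surfactant, one of -0.25 ± 0.39. Abca4, the retinoid transporter of photoreceptors, and Abca12, the lipid transporter of keratinocytes, had logFC values of 0.29 ± 0.69 and 0.86 ± 0.89. Those of Abca13, Abca14, Abca15, Abca16 and Abca17 lay between 0.08 and 0.60.

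In neurons 0 of the 11 were called by edgeR, 1 had an unadjusted p under 0.05 (Abca1, logFC -0.86 ± 0.40), DESeq2 called 0 and the replicate block 1 as lower, where it called 417 of all tested genes lower. Their median logFC was 0.17, against 0.00 over all tested genes. Between cell types in SH mice, 2 of the 11 were higher in glia, Abca1 (logFC 2.30 ± 0.42, edgeR adjusted p = 0.00182) and Abca2 (logFC 1.93 ± 0.52, edgeR adjusted p = 0.0236). The cluster thus held 3 of the 5 ABCA genes that were higher in SH glia, and Abca9 had the largest logFC among them. Without the filter on low counts, or without SH neurons pool 1 or 2 or SH glia pool 3, 1 of the 11 was higher.

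Among the 34 other tested ABC transporters, 0 passed edgeR's test for KA against SH in glia, 1 had an unadjusted p under 0.05, and DESeq2 called 1 lower. The smallest p-values were those of Abcg1, a sterol exporter, at 53.1, 35.1 and 71.2 CPM in KA and 96.3, 88.8 and 150 CPM in SH glia (logFC -1.07 ± 0.34, edgeR adjusted p = 0.436), and of Abcc8, the sulfonylurea receptor (logFC -0.90 ± 0.43). In neurons edgeR called 0, 2 had an unadjusted p under 0.05, and DESeq2 called 2 lower. The 2 genes under the unadjusted threshold were Abcc8, with 93.8, 76.0 and 87.7 CPM in KA and 146, 200 and 358 CPM in SH neurons (logFC -1.45 ± 0.43, edgeR adjusted p = 0.567), and Abcd2, a peroxisomal fatty acid transporter (logFC -1.13 ± 0.34, edgeR adjusted p = 0.601). In both no KA library reached the SH libraries.

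The 15 genes of lipid export and lipid carriage, from apolipoproteins and their receptors to the sterol-sensing nuclear receptors, gave 0 calls in glia by edgeR, with 4 at an unadjusted p under 0.05 and 3 called lower by DESeq2. In glia 13 of 15 had a negative logFC, with a median of -0.48. Lcat, the enzyme that esterifies cholesterol on lipoproteins, had 20.0, 12.9 and 19.9 CPM in KA and 112, 24.3 and 65.5 CPM in SH glia, without overlap (logFC -1.93 ± 0.63, edgeR adjusted p = 0.504). Abcg1, given above, had the other of the 2 smallest p-values. In neurons 13 of 15 were also negative, with a median of -0.30, and 0 were called by edgeR or DESeq2 or had an unadjusted p under 0.05. The smallest p-values there were those of Lcat (logFC -1.03 ± 0.64) and Nr1h3, a sterol-sensing nuclear receptor (logFC -0.84 ± 0.53).

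The genes around the cluster were the 5 nearest tested protein-coding genes on each side. Of these 10 flanking genes, 1 was lower in KA glia by edgeR at FDR 0.25. It was Arsg, a lysosomal sulfatase whose gene lies on the Abca8b side, with 49.1, 39.7 and 52.6 CPM in KA and 103, 94.7 and 171 CPM in SH glia (logFC -1.38 ± 0.33, edgeR adjusted p = 0.150). Its call was lost in the fit of glial libraries alone, in the fit of all genes without a filter, and without SH glia pool 3, KA glia pool 1 or KA glia pool 2. Wipi1, an autophagy protein whose gene lies next to Arsg, had a logFC of -0.89 ± 0.32 (edgeR adjusted p = 0.659). Map2k6, the neighbour on the Abca5 side, had -0.28 ± 0.37 and was within its SE of no difference. The median over the 10 was -0.46. In neurons edgeR called 0 of 10, 1 had an unadjusted p under 0.05, and DESeq2 called 1 higher. The smallest p-values were those of Sox9, a transcription factor of astrocytes and also on the astrocyte list (logFC 1.62 ± 0.48, edgeR adjusted p = 0.520), and of Kcnj2, an inward rectifier potassium channel (logFC 0.56 ± 0.31).

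Likeness of pattern was measured as Pearson's r of log2 CPM over the 12 libraries, against 13369 protein-coding genes. The libraries share pools and differ mainly by cell type, so r describes these libraries and carries no test. Abca9 was most like Maf, a transcription factor (r = 0.954), Nat8f4 (0.946) and Phldb2 (0.942). Abca6 was most like Nat8f4 (0.966), A930017K11Rik (0.965) and Fads2, a fatty acid desaturase (0.961), and its r with Abca9 was 0.956 over the 12 libraries, 0.984 within glia and 0.703 within neurons. Abca8a was most like Sspo (0.989), Plxdc2 (0.985) and Slain1 (0.980). Abca8b was most like Ank, a pyrophosphate transporter (0.952), Tle2, a transcriptional corepressor (0.940), and Ivd, an enzyme of leucine breakdown (0.937), and its r with Abca8a was -0.01 over the 12 libraries, 0.934 over the 6 glial and 0.685 over the 6 neuronal ones. Abca5 was most like Adcy9, an adenylyl cyclase (0.974), Minos1, a mitochondrial inner membrane protein (0.972), and Tfr2, a transferrin receptor (0.968). Its r with Abca9 was -0.68 over the 12 libraries and -0.01 and -0.23 within glia and neurons.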

How the data were processed

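The authors deposited raw read counts per gene for 12 mRNA libraries. Per the labels and the study's methods, cDNA was made with an oligo-dT kit, reads were trimmed with Trim Galore 0.4.3, aligned to mm10 with Rsubread and counted with featureCounts without strand on GENCODE M16; libraries mixed single and paired-end runs. From these counts, symbols and exon lengths were taken from GENCODE M21 (105 of 53379 IDs had no symbol). edgeR 4.0.16 (R 4.3.3) fitted 4 group means over 12 libraries after filterByExpr and TMM scaling, with Benjamini-Hochberg adjustment over all 37598 genes and a threshold of 0.25 for KA against SH and 0.05 between cell types. DESeq2 1.42.0, other scalings, filters, a replicate block and left-out libraries were alternatives. The edgeR fit was tested on simulated data. Figures used matplotlib 3.10.9.

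Replicates are pools of unequal numbers of mice, so p-values measure the spread between pools. NeuN- and NeuN+ libraries of 1 number come from the same pool. For KA against SH the numbers paired libraries in the data: same-numbered libraries deviated together with r from 0.264 to 0.764.

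The members and lists were chosen with earlier results of these data known. Named genes were the members, all other ABCA genes, and of the other lists those past the threshold or else the 2 smallest p-values, plus the 3 genes most like each member with at least 5 CPM on average in a cell type.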

Additional observations from a re-analysis of the deposited data

Results flagged for a closer look

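Abca9 moved in opposite directions in the 2 cell types: the logFC of KA against SH was -2.07 in glia, with all 3 KA libraries below all 3 SH libraries, and 1.00 in neurons, with all 3 KA libraries above all 3 SH libraries. The difference between the 2 values was not tested.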

How the results depend on the processing

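Alternatives left the cell type calls of Abca9, Abca8a and Abca6 in SH mice and of Abca8a in KA mice past their threshold in all fits run. The number of cluster genes lower in KA glia (2) became 4 with DESeq2 and with the replicate block, 0 in separate fits of 6 libraries, without the 2 low-input libraries and at FDR 0.05, and 0 to 4 when single libraries were left out (0 when SH glia pool 3 or KA glia pool 2 was dropped, 1 when SH or KA glia pool 1 was, 4 when SH glia pool 2 was). The number lower in NeuN- became 1 in SH with the block, at FDR 0.25 and in left-out fits (0 to 1, 1 without SH glia replicate 2), and in KA 2 with the block and 1 at FDR 0.25; the number higher in KA became 2 in separate fits. For Abca8b in SH, the logFC of NeuN- against NeuN+ turned to 0.0367 with RLE factors, 0.0368 with DESeq2, 0.0579 without the filter, 0.2737 in separate fits and 0.1731 without the low-input libraries, and ranged from -0.4788 to 0.1943 with single libraries left out. RLE factors moved the median logFC of all genes between cell types from -0.01 to 0.14 in SH and from 0.24 to 0.39 in KA. The replicate block gave, as lower in KA, 2 other ABCA genes in glia and 1 in neurons, 3 other ABC genes in glia and 2 in neurons, 5 lipid genes in glia and 2 in neurons, and 4 flanking genes in glia, and 1 flanking gene as higher in neurons; it changed no other call among these counts and the named cluster values than those given here and above. Over all genes the block called 1566 lower in glia and 417 lower and 730 higher in neurons, and DESeq2 645, 151 and 305, against 115, 23 and 105 in the reported fit. Between cell types the block called 5322 genes lower in NeuN- in SH and 5289 in KA, against 2276 and 2211 in the reported fit. DESeq2 gave 1 other ABC gene lower in glia and 2 in neurons, 3 lipid and 2 flanking genes lower in glia, and 1 flanking gene higher in neurons. Separate fits gave 2 other ABC genes lower and 1 flanking gene higher in neurons, and 0 flanking genes lower in glia. Without the filter, 1 lipid and 0 flanking genes were lower in glia, and 1 other ABCA gene was higher in SH glia. With legacy=FALSE in edgeR, 1 lipid gene was lower in glia. Flanking genes lower in glia were 0 without the low-input libraries, 0 at FDR 0.05 and 0 to 1 with single libraries left out; lipid genes were 0 to 1, and other ABCA genes higher in SH glia 1 to 2. The causes were not tested. With 3 libraries per group, adjusted p-values depend on the shared estimate of spread, and the lowest depths were those of KA glia replicate 1 and SH glia replicate 1.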
